A study of Rattus norvegicus with 18 samples.

Results

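Genes that remove reactive oxygen or handle iron, 9 in all, were followed in kidney RNA of 18 animals: catalase (Cat, ENSMUSG00000027187), the superoxide dismutases Sod1 (ENSMUSG00000022982) and Sod2 (ENSMUSG00000006818), the glutathione peroxidases Gpx1 (ENSMUSG00000063856), Gpx3 (ENSMUSG00000018339) and Gpx4 (ENSMUSG00000075706), the ferritin chains Fth1 (ENSMUSG00000024661) and Ftl1 (ENSMUSG00000050708), and the transferrin receptor Tfrc (ENSMUSG00000022797). They were chosen by name, as a set of antioxidant enzymes and iron genes, with earlier results of these data known. Their 9 identifiers were all found among the 55335 in the table of counts. All 9 passed the filter on low counts, as did 19233 identifiers in all. In the diabetic model kidneys 7 of the 9 genes rose and 2 fell against controls (edgeR), where 32.2% of all genes were called. Of the 9, Fth1 showed the largest rise and Tfrc the larger fall, and with a division among the controls as a covariate only the fall of Tfrc was called. No change under treatment passed the edgeR test for any of the 9, while DESeq2 called a fall of Sod2.

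The samples were 6 libraries in each of 3 groups, 1 library per animal by the design text. Control animals (Ctrl) had ordinary feed and solvent by gavage. Model animals (DN, for diabetic nephropathy) had a high-fat diet and an injection of STZ, the usual abbreviation of streptozotocin, a toxin of the insulin-producing beta cells. Treated animals (Treat) had the same diet and injection and then TSK, a preparation that the labels name only by these letters, orally at 500 mg/kg each day for 4 weeks. No strain, age or sex is given in the labels. The labels call the animals Rattus norvegicus, while all identifiers and both genome builds are of the mouse, so the species of the animals cannot be told from these sources. Whether reads were lost where the sequences of the animals and the reference differ was not tested.

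Superoxide, a by-product of respiration, is turned into hydrogen peroxide by superoxide dismutases, Sod1 in the cytosol and Sod2 in the mitochondrial matrix. Catalase, in peroxisomes, splits the peroxide into water and oxygen. The glutathione peroxidases are selenium-containing enzymes that reduce peroxides with glutathione: Gpx1 acts in the cytosol and mitochondria, Gpx3 is secreted into plasma and made largely in kidney tubules, and Gpx4 reduces lipid peroxides in membranes and thereby holds back ferroptosis, a cell death driven by iron. Free iron turns peroxide into more reactive radicals, and cells store it inside ferritin, a shell of heavy (Fth1) and light (Ftl1) chains. Tfrc brings iron into the cell with transferrin. When iron is plentiful, Tfrc messenger RNA is degraded and ferritin messages are translated, a control that acts on ferritin mainly at translation and on Tfrc through RNA stability.

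Library totals ranged from 22040987 to 35275498 counts. Those of Treat were the shallower when set against DN, and likewise against Ctrl (exact permutation test, two-sided, p = 0.013 in each, 0.0195 after Benjamini-Hochberg adjustment over 6 tests). At these depths the least abundant member, Tfrc, still had 1239 counts in its lowest library. Levels are given as CPM, counts per 1000000 counts of the library after scaling by its TMM factor (trimmed mean of M-values, edgeR), and changes as log2 fold changes. The identifier ENSMUSG00000086503 divided the controls: control library 4 had 23 counts of it and the other 5 controls had 38313 to 52784. The 12 libraries of DN and Treat had 12 to 41. An RNA that is nearly absent in some animals and abundant in others, as here, can mark the sex of an animal, and neither the sex of the animals nor a name for this identifier is given in the sources used here. Sex, or another trait that sets 5 of the 6 controls apart, therefore cannot be told apart from the model or the treatment in any comparison with Ctrl, and the comparison of Treat with DN does not carry this division. For 7 of the 9 members, control library 4 lay inside the range of the other 5 controls, and for Gpx3 and Ftl1 it lay below them. Of 133 further symbols fixed as lists of related pathways and of kidney, blood and immune cell markers, 0 could be matched to an identifier, so the labelled tissue was not checked against its markers, and the part of other cell types in the results was not tested. In such bulk tissue, fewer cells of a type and less RNA per cell cannot be told apart.

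Promoters of 7 of the 9 members are in the RefSeq table of the rat build GRCr8 (Fth1 and Ftl1 are not matched). Those of 4 are shown, each as the 250 bases before the annotated start, read 5′ to 3′ on the strand of the gene: Tfrc and Sod2 because these were the members that fell in the model, Gpx1 because it rose with no overlap between groups, and Cat because it varied most among treated animals. Capitals mark matches on either strand to TGACNNNGC (the core of the antioxidant response element), GGGCGG (the GC box), CCAAT (a common promoter element), and the hypoxia response cores ACGTG as well as GCGTG. No marked match overlaps another in these 4.
Tfrc, chr11:81690319-81690568, minus strand: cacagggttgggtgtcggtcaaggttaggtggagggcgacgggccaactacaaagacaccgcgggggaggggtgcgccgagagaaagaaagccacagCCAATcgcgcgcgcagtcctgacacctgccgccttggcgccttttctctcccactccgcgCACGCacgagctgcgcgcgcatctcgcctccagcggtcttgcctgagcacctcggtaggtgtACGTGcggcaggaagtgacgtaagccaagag
Sod2, chr1:50050169-50050418, minus strand: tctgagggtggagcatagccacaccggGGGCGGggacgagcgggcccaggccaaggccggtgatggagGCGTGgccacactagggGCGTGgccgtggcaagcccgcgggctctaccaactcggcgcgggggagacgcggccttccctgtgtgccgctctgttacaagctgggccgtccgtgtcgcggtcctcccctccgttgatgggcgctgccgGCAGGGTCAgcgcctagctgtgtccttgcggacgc
Gpx1, chr8:117905212-117905461, plus strand: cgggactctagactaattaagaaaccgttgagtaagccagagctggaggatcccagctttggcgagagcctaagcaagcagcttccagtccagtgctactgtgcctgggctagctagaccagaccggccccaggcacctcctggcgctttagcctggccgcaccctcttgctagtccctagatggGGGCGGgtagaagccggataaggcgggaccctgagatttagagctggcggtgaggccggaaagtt
Cat, chr3:110329527-110329776, minus strand: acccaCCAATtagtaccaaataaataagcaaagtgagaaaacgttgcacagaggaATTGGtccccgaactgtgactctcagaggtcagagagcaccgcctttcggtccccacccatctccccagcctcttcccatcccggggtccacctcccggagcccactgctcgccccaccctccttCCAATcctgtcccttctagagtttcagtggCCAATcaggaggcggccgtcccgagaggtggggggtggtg

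Among the 7 members with a promoter entry, Sod2 alone held TGACNNNGC, with the match beginning 35 bases before its start, while 10.1% of 33469 rat promoters held it in the same window. Tfrc held CCAAT, which 34.0% of promoters hold, with ACGTG 31 bases and GCGTG 93 bases before its start (16.6% and 25.9% of promoters). The hypoxia cores were not particular to Tfrc. Sod2 held GCGTG 182 and 165 bases before its start, with a GC box at 223. Sod1 held ACGTG, and Gpx3 and Gpx4 held GCGTG, while Cat and Gpx1 held neither core. Cat held CCAAT at 4 places and Gpx1 a single GC box, a motif found in 30.5% of promoters. These are matches of letters in a rat window and not measured binding sites.

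The comparison of DN with Ctrl asks how the kidney of the model animals differed from that of controls. Of the 9 members, 7 were called higher and 2 lower (edgeR quasi-likelihood test, Benjamini-Hochberg adjusted p under 0.05 over all 19233 genes). Over all genes, 32.2% were called in this comparison, 16.9% higher and 15.3% lower. Abundant genes were called more often, and among the 1579 genes with a mean of at least 100 CPM, which takes in every member, 42.8% were called. DN and Ctrl had no overlap for 4 members (Sod2, Gpx1, Fth1 and Tfrc), against 16.2% of all genes (8.34% with DN higher and 7.89% with DN lower). With libraries scaled by their totals alone, Cat and Gpx4 did not overlap either, which made 6 members against 15.7% of all genes. The median log2 fold change of the members was 0.47, against 0.01 over all genes.

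**Figure D1:**
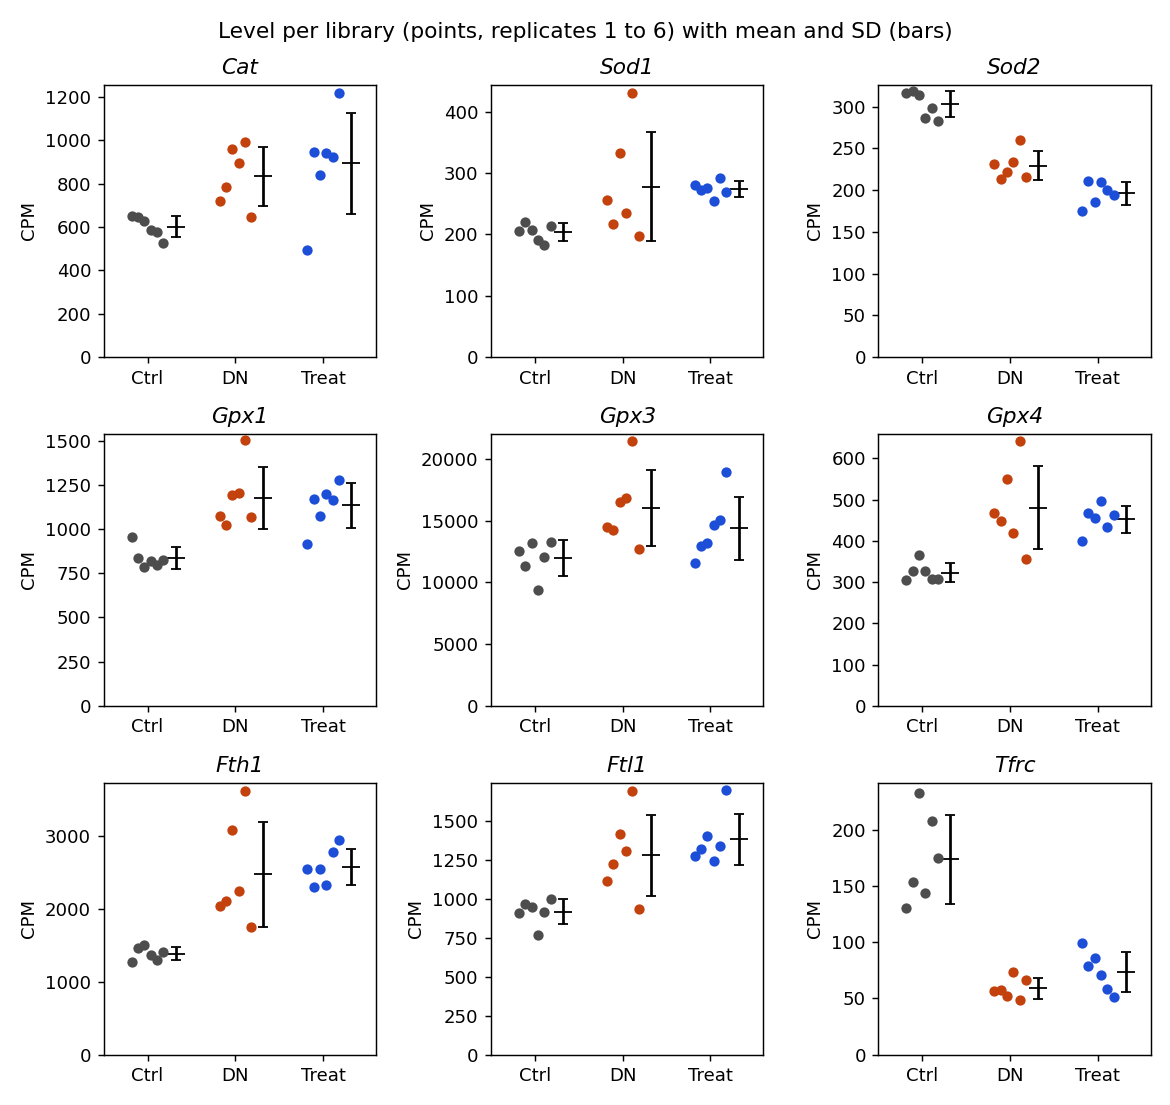
Level of each gene in CPM (y axis, from 0) in the 6 libraries of Ctrl, DN and Treat (points, in the order of replicate 1 to 6), with the group mean and SD as bars. Fth1 sits between 1753 and 3620 CPM in DN, above every control, and Tfrc between 48.8 and 73.5 CPM, below every control.

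The messages of both ferritin chains were called higher in the model, and ferritin protein was not measured. Fth1, the heavy chain that oxidises the iron it takes in, stood at 1276 to 1512 CPM in the controls (median 1385) and at 1753 to 3620 CPM in DN (median 2182). Every DN library lay above every control, and libraries 3 and 5 of DN were the highest at 3080 and 3620 CPM. The mean went from 1388 ± 90.3 to 2477 ± 716 CPM (SD, n = 6 each), a 1.79-fold rise (log2 fold change 0.84, SE 0.14, edgeR adjusted p = 0.000258). The spread among DN animals was the wider, with a coefficient of variation of 28.9% against 6.51% in the controls.

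Ftl1, the light chain of the ferritin shell, stood at 772 to 1001 CPM in the controls (median 933) and at 935 to 1693 CPM in DN (median 1266). The groups overlapped only through DN library 6, whose 935 CPM lay below the highest controls. Its rise was 1.40-fold (log2 fold change 0.48, SE 0.12, edgeR adjusted p = 0.00534). Ferritin genes have processed pseudogenes, and how the authors' counting assigned shared reads is not given, so the levels of both chains are uncertain. No other identifier had counts within 3% of those of any member in every library, which cannot show whether part of the reads was shared.

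Tfrc, the receptor for iron uptake, fell. It stood at 130 to 233 CPM in the controls (median 164) and at 48.8 to 73.5 CPM in DN (median 56.9). No DN library reached the lowest control, and the controls varied by 22.8% among themselves. The mean dropped from 174 ± 39.6 to 59.0 ± 9.18 CPM (SD, n = 6 each), which is 2.95-fold lower (log2 fold change -1.56, SE 0.17, edgeR adjusted p = 2.23e-06). A larger change in either direction was found for 4.67% of all genes tested. This call held in each of 28 alternative settings, with log2 fold changes from -1.63 to -1.29.

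The ratio of Tfrc to Fth1 counts inside a library does not depend on the scaling of libraries. It was 0.102 to 0.159 in the controls and 0.0135 to 0.0377 in DN, with no overlap. The treated libraries held 0.0173 to 0.0388, all below every control, and library 1 of Treat lay just above the highest DN library. The ratio of Fth1 to Ftl1 counts was 1.40 to 1.77 in the controls and 1.72 to 2.17 in DN. The ranges overlapped through control library 4 (1.77), which lay above DN libraries 2 and 4 (1.73 and 1.72). The next control, library 3, held 1.60. Control library 4 is the one set apart by the division of the controls, so for this ratio the model cannot be told apart from that division. These ratios are counts not divided by gene length and are set side by side between groups only, and they were formed with the levels above known.

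**Figure D2:**
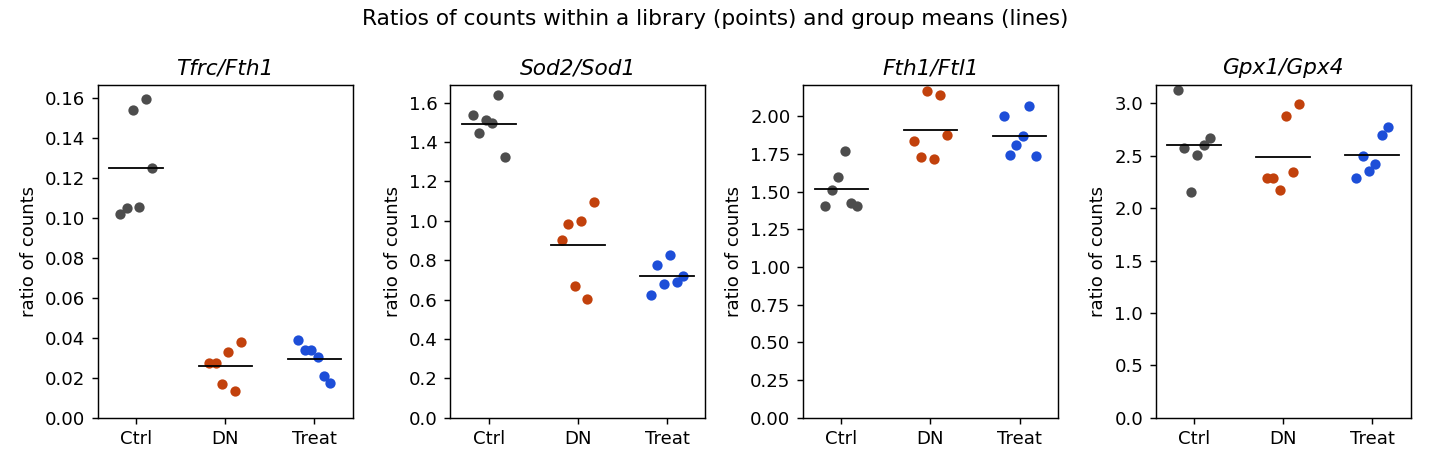
Ratio of the counts of 2 genes within each library (y axis, no unit, from 0) for Tfrc/Fth1, Sod2/Sod1, Fth1/Ftl1 and Gpx1/Gpx4, with points for libraries and lines for group means. Tfrc/Fth1 and Sod2/Sod1 are lower in every DN and treated library than in any control, while the mean of Gpx1/Gpx4 was 2.61 for Ctrl, 2.49 for DN and 2.51 for Treat.

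The superoxide dismutases moved in opposite directions. Sod2, the mitochondrial enzyme, stood at 283 to 319 CPM in the controls (median 306) and at 214 to 260 CPM in DN (median 227). All 6 DN libraries lay below all 6 controls. The fall was small and the spread narrow, at 5.12% of the mean in the controls and 7.45% in DN (log2 fold change -0.40, SE 0.07, edgeR adjusted p = 0.000239), which is 1.32-fold lower.

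Sod1, the cytosolic enzyme, stood at 182 to 221 CPM in the controls (median 207) and at 197 to 431 CPM in DN (median 245). DN libraries 3 and 5 were high, at 332 and 431 CPM, while libraries 2 and 6 lay inside the control range. The fitted rise was 1.36-fold (log2 fold change 0.45, SE 0.14, edgeR adjusted p = 0.0231). It missed the threshold when control library 5, DN library 3 or DN library 5 was left out (log2 fold changes 0.42, 0.39 and 0.28, edgeR adjusted p = 0.0506, 0.0597 and 0.0564). The ratio of Sod2 to Sod1 counts was 1.33 to 1.64 in the controls and 0.604 to 1.10 in DN.

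The enzymes that remove peroxide were all called higher in DN. Gpx1, the cytosolic and mitochondrial peroxidase, stood at 785 to 957 CPM in the controls (median 820) and at 1025 to 1503 CPM in DN (median 1133), with no overlap. Its rise was 1.41-fold (log2 fold change 0.49, SE 0.10, edgeR adjusted p = 0.00111). Gpx4, the lipid peroxide reductase, stood at 306 to 365 CPM in the controls (median 317) and at 356 to 642 CPM in DN (median 458). DN library 6 (356 CPM) fell below the highest control (365 CPM), and the other DN libraries lay above all controls. Gpx4 rose 1.49-fold (log2 fold change 0.57, SE 0.11, edgeR adjusted p = 0.000787).

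Gpx3, the secreted peroxidase, took 0.978% to 1.30% of all counts in the controls and 1.27% to 1.90% in DN, and it ranked between 3 and 11 among all identifiers by counts (not per length) in the 18 libraries. In CPM it stood at 9388 to 13243 in the controls (median 12299) and at 12682 to 21453 in DN (median 15490). Only DN library 6 lay inside the control range. The rise was 1.34-fold (log2 fold change 0.42, SE 0.14, edgeR adjusted p = 0.0247). It missed the threshold without control library 4, the lowest control (log2 fold change 0.36, adjusted p = 0.0557), without DN library 5, the highest (0.32, adjusted p = 0.0692), and with no filter on low counts (0.43, adjusted p = 0.0582).

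Catalase stood at 525 to 649 CPM in the controls (median 607) and at 647 to 992 CPM in DN (median 839). Library 6 of DN, at 647 CPM, lay just inside the control range, and the other DN libraries lay above it. The rise was 1.38-fold (log2 fold change 0.47, SE 0.16, edgeR adjusted p = 0.0286). This was the member nearest to the threshold. Leaving out control library 5 or 6, or DN library 3, 4 or 5, moved the log2 fold change to 0.46, 0.43, 0.42, 0.45 and 0.41, with edgeR adjusted p = 0.0534, 0.0643, 0.0663, 0.0522 and 0.0697.

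With the division of the controls as a covariate, control library 4 alone stands for the controls, and only Tfrc remained called among the members in DN (log2 fold change -1.29, SE 0.28, edgeR adjusted p = 0.0122). All 9 members kept their direction in that fit. Fth1 had a log2 fold change of 0.86 with an SE of 0.29 (adjusted p = 0.0936), Gpx3 0.77 with 0.26 (0.0938), Ftl1 0.73 with 0.23 (0.0768) and Sod2 -0.32 with 0.12 (0.138). For Gpx4, Sod1, Gpx1 and Cat the values were 0.56, 0.54, 0.53 and 0.50 (adjusted p = 0.148, 0.285, 0.129 and 0.364). The division runs the same way as the model for 5 of the 6 controls, and the difference between DN and Ctrl cannot be told apart from it with 1 control on the other side.

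**Figure D3:**
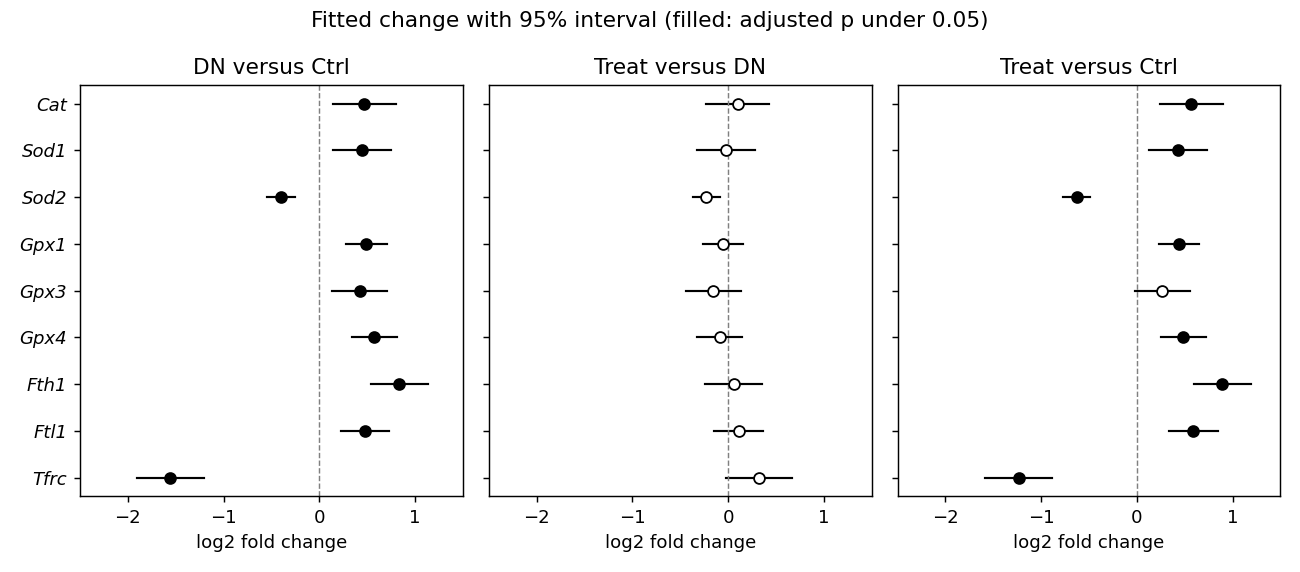
Fitted log2 fold change (x axis) with its 95% interval for the 9 genes in each comparison, with filled points for an adjusted p under 0.05. In DN versus Ctrl 9 of 9 points are filled, in Treat versus DN 0, and in Treat versus Ctrl 8, all but Gpx3.

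Setting Treat against DN addresses the effect of TSK on the model kidney. No member was called by edgeR, where 1.39% of all genes were called (0.536% higher and 0.858% lower, and 3.04% of those with at least 100 CPM). At an unadjusted p under 0.05 there was 1 member, Sod2, and DESeq2 called that one alone. The members had a median log2 fold change of -0.02, against -0.01 over all genes. The 95% intervals given with each member are not adjusted for the number of genes. They also take the TMM factors as fixed, so they leave out the uncertainty of the scaling.

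Sod2 stood lower again in the treated animals, at 175 to 211 CPM (median 197) against 214 to 260 CPM in DN. All 6 treated libraries lay below all 6 DN libraries, which was so in this direction for 1.03% of all genes and in either direction for 1.8% (0.77% higher). The fitted log2 fold change was -0.23 (SE 0.07, 95% interval -0.37 to -0.08), with an edgeR adjusted p of 0.101 and a DESeq2 adjusted p of 0.0267. The separation depended on the scaling. In CPM of the library total, with no TMM factor, the treated libraries held 197 to 217 and the DN libraries 207 to 230, and the log2 fold change was -0.09. The TMM factors averaged 1.06 in Treat and 0.964 in DN (two-sided exact permutation test, p = 0.00433, adjusted 0.0195 over 6 tests), and leaving them out moved the median of all genes by 0.13 on the log2 scale.

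Tfrc stood at 51.0 to 99.0 CPM in the treated animals (median 74.5) against a median of 56.9 in DN. Of the 6 treated libraries 5 lay above the DN median, with library 1 the highest (99.0 CPM) and library 6 the lowest (51.0 CPM). The log2 fold change was 0.32 (SE 0.16, 95% interval -0.02 to 0.67, edgeR adjusted p = 0.341), so a rise of up to 1.59-fold lay inside the interval.

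For the ferritin messages no change under treatment was called, and the fitted changes depended on the scaling. Fth1 stood at 2309 to 2955 CPM in Treat (median 2550), and the log2 fold change against DN was 0.06 (95% interval -0.24 to 0.35, edgeR adjusted p = 0.881). With library totals it was 0.20 (edgeR adjusted p = 0.376). The spread of Fth1 was 9.80% of the mean, against 28.9% in DN, where libraries 3 and 5 were high (3080 and 3620 CPM), and this difference was not tested. Ftl1 stood at 1246 to 1702 CPM (median 1333), with a log2 fold change of 0.11 (95% interval -0.14 to 0.36, adjusted p = 0.699). With library totals it was 0.25 (SE 0.11, edgeR adjusted p = 0.179).

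Among the other enzymes the fitted changes under treatment were small, and for Sod1, Gpx1 and Gpx4 the sign flipped when libraries were scaled by their totals alone. Sod1 stood at 254 to 292 CPM in Treat (median 274; log2 fold change -0.02, 95% interval -0.32 to 0.28, 0.13 with library totals). Gpx1 stood at 915 to 1279 CPM (median 1169; log2 fold change -0.05, 95% interval -0.26 to 0.16, 0.08 with library totals). Gpx4 stood at 401 to 495 CPM (median 458; log2 fold change -0.09, 95% interval -0.32 to 0.15, 0.05 with library totals). Sod1 in the treated group had a spread of 4.55% of the mean, against 31.8% in DN, where libraries 3 and 5 were high (332 and 431 CPM). Whether the spreads differ was not tested.

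Gpx3 stood at 11574 to 18959 CPM in Treat (median 13920), with 5 of 6 libraries below the DN median. Its log2 fold change was -0.16 (95% interval -0.44 to 0.13, edgeR adjusted p = 0.605), and -0.02 with library totals. Cat ranged from 493 CPM in treated library 1, below every control, to 1219 CPM in treated library 6, above every DN library (median 931). Treated library 1 had the highest TMM factor, and with library totals its Cat level was 564 CPM, inside the control range of 514 to 628 CPM. The log2 fold change of Cat against DN was 0.10 (95% interval -0.23 to 0.43, adjusted p = 0.800), and 0.23 with library totals (edgeR adjusted p = 0.351).

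Setting Treat against Ctrl addresses how far the treated animals were from the controls. It shares the controls with the comparison of DN with Ctrl, so its calls are not independent of those above. It called 6 members higher and 2 lower, where 44.9% of all genes were called (23% higher and 21.9% lower, and 59.6% of those with at least 100 CPM). The groups did not overlap for 6 members, against 24.7% of all genes (11.5% higher and 13.2% lower). The members without overlap were Sod1, Gpx4, Fth1 and Ftl1, which were higher, and Sod2 and Tfrc, which were lower. With library totals Gpx1 and Gpx3 joined them, which made 8 members against 25.1% of all genes, and the median of all genes moved by 0.10 on the log2 scale. The TMM factors averaged 1.06 in Treat and 0.983 in Ctrl (two-sided exact permutation test, p = 0.00866, adjusted 0.0195 over 6 tests).

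Fth1 was 1.86-fold higher in Treat than in Ctrl (log2 fold change 0.89, SE 0.14, edgeR adjusted p = 8.79e-05) and Ftl1 1.51-fold higher (0.59, SE 0.12, adjusted p = 0.000759). Tfrc was 2.36-fold lower (log2 fold change -1.24, SE 0.17, edgeR adjusted p = 1.57e-05). Sod2 was 1.54-fold lower (log2 fold change -0.63, SE 0.07, edgeR adjusted p = 1.55e-06). In DN the same genes had stood at 0.84, 0.48, -1.56 and -0.40 against the controls.

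Cat (log2 fold change 0.57, edgeR adjusted p = 0.00669), Gpx4 (0.49, adjusted p = 0.00183), Gpx1 (0.44, adjusted p = 0.00172) and Sod1 (0.43, adjusted p = 0.0214) were called higher as well. Gpx3 was not called, at a log2 fold change of 0.27 (95% interval -0.02 to 0.55, adjusted p = 0.122), but with library totals it was (0.37, adjusted p = 0.0136). Without control library 4 and treated library 1, Sod1 missed the threshold (log2 fold change 0.41, adjusted p = 0.0518). With the division of the controls as a covariate, only Sod2 (-0.55, adjusted p = 0.0100), Ftl1 (0.84, adjusted p = 0.0330) and Tfrc (-0.97, adjusted p = 0.0391) remained called. The other members had log2 fold changes of 0.92 for Fth1 (adjusted p = 0.0558), 0.62 for Gpx3 (0.135), 0.60 for Cat (0.226), 0.52 for Sod1 (0.253), 0.47 for Gpx1 (0.135) and 0.47 for Gpx4 (0.176), with SEs of 0.20 to 0.31.

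Levels of the members were correlated between animals of a group. After each group's mean was taken off, log2 CPM over the 18 libraries was positively correlated in 28 of 28 pairs of the 8 genes other than Tfrc (median Pearson r 0.61, range 0.34 to 0.90). Tfrc went the other way with each of the 8 (r from -0.65 to -0.30). Closest by Pearson r were Fth1 and Sod1 (Pearson r 0.90, Spearman rho 0.79), followed by Gpx3 with Ftl1 (0.86 and 0.81) and Fth1 with Ftl1 (0.85 and 0.78). Cat was most like Gpx1 (0.80 and 0.86), as was Sod2 (0.76 and 0.73), and Gpx4 was most like Sod1 (0.81 and 0.49) by the same measure. By Spearman rho the order differed: Cat and Gpx1 were the closest pair (0.86), and Gpx4 was closest to Cat (0.65). These values describe libraries that share their depth and scaling factor, and no test was made of them. No r was taken for genes outside the set, so they cannot show whether the members varied together more than other genes. Of the 18 libraries, DN library 5 had the lowest TMM factor (0.886) and treated library 1 the highest (1.15). The part of these libraries and of the scaling in the correlations was not tested.

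**Figure D4:**
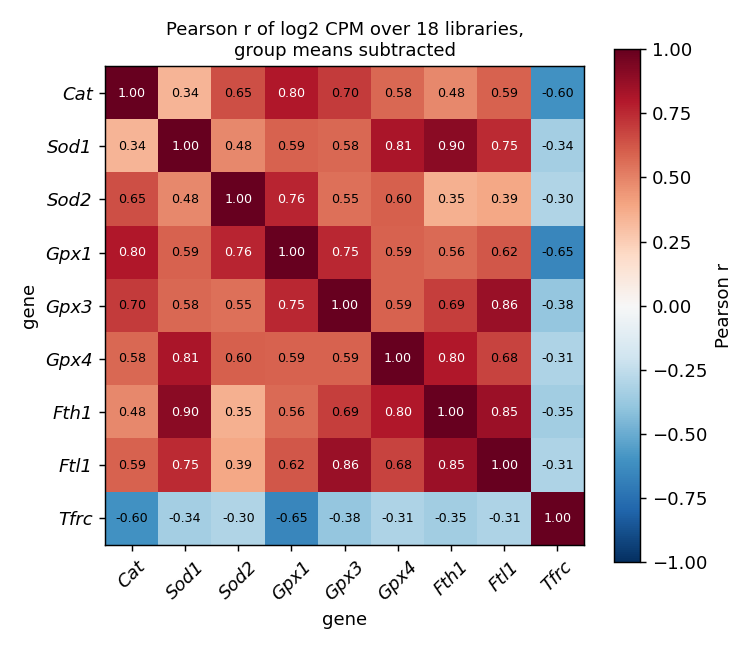
Pearson r (colour and number) between the log2 CPM of each pair of the 9 genes (both axes) over 18 libraries after subtracting the group means. The 28 pairs without Tfrc lie between 0.34 and 0.90, and the 8 pairs with Tfrc between -0.65 and -0.30.

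Some libraries stood at the end of their group for many members. In DN, library 5 was the highest of its group for 8 of the 9 members and the lowest for Tfrc, and library 6 was the lowest for 6 members. DN library 5 also had the lowest TMM factor of its group, 0.886, and the part of that factor in its high values was not tested. In Treat, library 6 was the highest for 5 members and the lowest for Tfrc, and library 1 was the lowest for 5 members and the highest for Tfrc. Together the 9 genes took 1.45% to 1.76% of all counts in the controls, 1.79% to 2.71% in DN and 2.03% to 2.87% in Treat, with most of it from Gpx3.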

How the data were processed

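Polyadenylated RNA of kidney was sequenced in 18 libraries built with a SMARTER kit from 1.3 µg of total RNA, per the labels' protocols. The authors deposited raw counts per gene identifier without normalization. Genome builds were GRCm38 and mm10, per the submitters' processing notes, and neither the aligner, the counter, the annotation nor strandedness is given in the sources used here. Columns were joined to samples by library name. Symbols came with the list of 9 members; 0 of the 55335 identifiers matched the rat gene table. The members and lists were chosen with earlier results of these data known. All 9 members were named by rule, each with its most like members.

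In R 4.3.3, edgeR 4.0.16 fitted all libraries together (filterByExpr, TMM factors, 1 coefficient per group, quasi-likelihood F-test, Benjamini-Hochberg over 19233 genes, called under 0.05). Standard errors and 95% intervals came from the F statistics. Log2 CPM used a prior count of 2. The steps were tested on simulated data with changes put into DN and read against Ctrl. Of 98 genes changed by 0.5 on the log2 scale, 20.4% were called, and of 97 changed by 1.5, 82.5%. Of 18766 unchanged genes, 0.032% were called. Far fewer genes were changed there than were called in these data, so the shares do not carry over directly. The labels do not say that replicates pair animals. The p-values set differences of group means against the spread between these libraries within groups. Alternatives included DESeq2 1.42.0, voom of limma 3.58.1, other scalings and filters, a replicate block, the control division and each library left out.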

Additional observations from a re-analysis of the deposited data

Results flagged for a closer look

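In 27 groups of 6 libraries (9 genes in 3 groups), 4 held a library far from the others by its gap to the nearest library over the range of the group. Chance gives about 1 such group in 20. Gpx1 stood at 957 CPM in control library 1 and at 1503 CPM in DN library 5. Gpx4 stood at 365 CPM in control library 3. Ftl1 stood at 1702 CPM in treated library 6.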

How the results depend on the processing

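Between DN and Ctrl, 6202 genes were called, and 986 with the control division as a covariate, where 1 member of 9 remained. Between Treat and Ctrl, that fit called 1862 genes in place of 8629, and 3 members in place of 8. It leaves 1 control as the reference, so its standard errors are larger. Between Treat and DN, 268 genes were called, against 775 with library totals, 799 with DESeq2, 119 with no filter, 116 with only the 12 libraries compared, 117 with the replicate block, 737 with voom and quality weights, 593 without control library 4 and treated library 1, and 97 to 446 with single libraries left out. Of the members, DESeq2 called 1 there (Sod2) and no other setting called any.

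With single libraries left out, DN versus Ctrl kept 6 to 9 members called, and Treat versus Ctrl 8 each time. Under the replicate block, Cat missed the threshold in DN versus Ctrl (log2 fold change 0.45, edgeR adjusted p = 0.0547), and it changed no other member's call. Same-numbered libraries of 2 groups deviated together (r over 0.1) in 2 of 18 pairs, with r from -0.19 to 0.19. A low r cannot show that the numbers do not pair animals, since a shared origin need not leave a mark on all genes.

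Signs flipped only for uncalled changes between Treat and DN. With library totals the log2 fold change was 0.126 for Sod1, 0.0807 for Gpx1 and 0.04999 for Gpx4, with voom 0.150, 0.0386 and 0.0231, for Sod1 with the replicate block 0.0112, and for Gpx1 without control library 4 and treated library 1 0.0177. The cause was not tested. With single libraries left out the ranges were -0.00875 to 0.225 for Cat, -0.0247 to 0.195 for Fth1, -0.103 to 0.146 for Sod1, -0.0917 to 0.0269 for Gpx1 and -0.161 to 0.0113 for Gpx4.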
